A study of Homo sapiens with 30 samples.

Results

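Yijin-tang is a multi-herb formula of Korean medicine, and the question here is how the transcripts of lung carcinoma cells differed between its highest and its lowest dose. The 6 libraries compared, of 30 in the series, were chosen by their labels alone: 3 from cells kept with an ethanol extract of Yijin-tang at 500 µg/mL and 3 at 20 µg/mL, all for 24 h. The cells were A549, an established line from a single human lung carcinoma, and every library of the series comes from it. Further groups used below were Yijin-tang at 100 µg/mL (3 libraries), Soshiho-tang at 500 and 20 µg/mL (3 libraries each) and Okbyeongpung-san at 500 and 20 µg/mL (2 libraries each), all 24 h ethanol extracts. Soyo-san, with 1 library at each of 20, 100 and 500 µg/mL, all of batch D, enters no test and is given as levels in the closing section. The 3 vehicle libraries had DMSO at 0.1% in the labels and at 2% in the series text. They are given as levels, with no test against them, but they enter the estimate of spread that all tests share. So do Soshiho-tang (3 libraries) and Okbyeongpung-san (2 libraries) at 100 µg/mL, likewise 24 h ethanol extracts. The solvent share of the extract-treated wells was not given in the sources used here. Replicates are not stated to be separate cultures, so p-values measure the spread between libraries, which may be technical.

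The 6 libraries held between 29221206 and 34843759 counts, with 31276800 ± 2132890 at 500 µg/mL and 32063900 ± 2501090 at 20 µg/mL (SD, n = 3 each; exact permutation test, two-sided, p = 0.6, where 0.1 is the smallest p that 3 against 3 can give). Messenger RNAs of the mitochondrial genome took 7.46% ± 0.63 of counts at 500 µg/mL and 7.82% ± 0.97 at 20 µg/mL (SD, n = 3 each; exact permutation p = 0.6), within a range of 6.22% to 9.89% over treated libraries and against 10.5% to 10.9% in vehicle. Of 4 epithelial markers, keratins KRT8 and KRT18 held at least 71981 counts in each of the 6 libraries and KRT7 at least 58942. EPCAM, the other marker, held only 160 to 198. Among immune markers PTPRC, CD3E and MS4A1 were at 0 and LYZ held at most 4 counts, whereas CD68 held 251 to 401 and CD14 held 52 to 110. The list summed to 11.3 to 14.6 CPM at 500 µg/mL and 11.4 to 14.9 CPM at 20 µg/mL. Of 6 fibroblast markers DCN and COL1A2 held at most 3 counts, COL1A1 held 676 to 944 and COL3A1 172 to 198, and the list summed to 33.1 to 38.4 CPM at 500 µg/mL and 28.8 to 34.9 CPM at 20 µg/mL. Endothelial markers held at most 11 counts. Among 11 alveolar genes the surfactant genes were at or near 0 (SFTPA1 and SFTPA2 at 0, SFTPC at 1 to 6 counts) and NKX2-1 held at most 1 count, while ABCA3 held 711 to 973, AGER 39 to 75 and NAPSA 13 to 32. None of the tested members of these lists was called between doses.

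Some background helps to read the genes below. The aryl hydrocarbon receptor is a transcription factor that waits in the cytosol for a small ligand, including many plant compounds, then pairs with ARNT in the nucleus and binds DNA with the core GCGTG. Its textbook targets are CYP1A1 and CYP1B1, enzymes that oxidise foreign compounds, and the feedback inhibitors AHRR and TIPARP. The integrated stress response acts through the transcription factor ATF4, which turns on genes for amino acid synthesis and transport and for recovery from stress. NR4A1, NR4A2 and NR4A3 are orphan nuclear receptors that cells switch on within a short time of a stimulus, often through cyclic AMP. FGA, FGB and FGG encode the chains of fibrinogen, the clotting protein that the liver secretes and that A549 cells also make.

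The DNA before the starts of these genes is shown because they are the groups that moved together. Each line gives the 250 bases before a start site, 5′ to 3′ on the gene's strand, from RefSeq on GRCh38.p14, with matches to 1 motif on either strand in capitals. For a gene with several start sites, the window with the most matches is printed, and motifs were picked after the values were seen.
CYP1A1: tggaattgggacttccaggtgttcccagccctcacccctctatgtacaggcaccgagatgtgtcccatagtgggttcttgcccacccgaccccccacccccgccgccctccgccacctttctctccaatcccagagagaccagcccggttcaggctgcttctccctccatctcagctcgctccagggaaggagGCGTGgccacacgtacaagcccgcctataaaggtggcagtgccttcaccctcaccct
TIPARP: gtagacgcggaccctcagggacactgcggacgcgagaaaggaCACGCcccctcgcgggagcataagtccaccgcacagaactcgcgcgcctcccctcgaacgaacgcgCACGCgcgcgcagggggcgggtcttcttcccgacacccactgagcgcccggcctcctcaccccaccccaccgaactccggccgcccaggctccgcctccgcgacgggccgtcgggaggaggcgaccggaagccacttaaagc
AHRR: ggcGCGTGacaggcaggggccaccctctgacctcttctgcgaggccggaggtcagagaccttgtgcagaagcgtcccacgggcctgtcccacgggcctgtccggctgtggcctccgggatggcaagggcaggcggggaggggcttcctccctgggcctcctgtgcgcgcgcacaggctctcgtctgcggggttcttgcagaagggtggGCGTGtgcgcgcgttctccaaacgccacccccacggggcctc
ASNS: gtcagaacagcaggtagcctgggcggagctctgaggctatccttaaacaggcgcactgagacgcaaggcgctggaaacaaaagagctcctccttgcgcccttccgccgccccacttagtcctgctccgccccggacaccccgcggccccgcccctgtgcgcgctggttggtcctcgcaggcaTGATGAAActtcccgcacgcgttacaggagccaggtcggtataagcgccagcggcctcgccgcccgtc
CHAC1: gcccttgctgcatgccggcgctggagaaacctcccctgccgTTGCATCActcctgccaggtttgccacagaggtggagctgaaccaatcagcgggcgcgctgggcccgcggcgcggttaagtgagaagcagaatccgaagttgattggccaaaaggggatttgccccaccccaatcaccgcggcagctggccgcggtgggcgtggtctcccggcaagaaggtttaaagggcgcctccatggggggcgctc
NR4A3: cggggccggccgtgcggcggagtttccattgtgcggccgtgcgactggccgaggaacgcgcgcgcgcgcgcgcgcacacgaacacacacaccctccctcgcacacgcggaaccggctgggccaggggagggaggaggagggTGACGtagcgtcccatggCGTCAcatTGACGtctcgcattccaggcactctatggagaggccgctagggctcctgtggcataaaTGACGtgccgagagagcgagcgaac
FGA: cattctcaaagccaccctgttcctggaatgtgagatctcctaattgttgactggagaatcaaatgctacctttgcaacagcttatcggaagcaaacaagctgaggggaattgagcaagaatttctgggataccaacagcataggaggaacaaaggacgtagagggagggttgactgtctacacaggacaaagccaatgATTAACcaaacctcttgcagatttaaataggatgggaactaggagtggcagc
FGB: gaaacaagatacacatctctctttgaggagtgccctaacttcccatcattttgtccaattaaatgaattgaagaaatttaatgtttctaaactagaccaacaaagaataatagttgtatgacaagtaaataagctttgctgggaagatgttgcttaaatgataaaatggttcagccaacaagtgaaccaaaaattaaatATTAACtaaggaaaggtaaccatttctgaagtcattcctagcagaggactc

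These windows lie at chr15:74725529-74725778 (minus strand) for CYP1A1, chr3:156674340-156674589 (plus) for TIPARP, chr5:322360-322609 (plus) for AHRR, chr7:97872409-97872658 (minus) for ASNS and chr15:40953221-40953470 (plus) for CHAC1. NR4A3 is at chr9:99821635-99821884 (plus), FGA at chr4:154590743-154590992 (minus) and FGB at chr4:154562730-154562979 (plus). Capitals mark GCGTG in CYP1A1, TIPARP and AHRR, and 32.2% of all 35116 windows in the table hold that short motif. In ASNS and CHAC1 they mark TGATGNAA, a core of the element that ATF4 binds, which 3.14% of windows hold. NR4A3 has 4 matches to TGACG, a half-site of the cyclic AMP response element, the nearest starting 25 bases before the start, and 21.2% of windows hold it. GTTAAT, a half-site for hepatocyte nuclear factor 1, starts 52 bases before the FGA start and 51 before the FGB start, and 6.23% of windows hold it. Some of the printed genes have several windows. TIPARP had its motif in 1 of 3 windows and ASNS in 1 of 2, while AHRR and FGB had theirs in 2 of 2. No match to its group's motif was found in the windows of TRIB3, STC2, PSAT1, PHGDH, PCK2, NR4A1 or FGG. CYP1B1 and NR4A2 are named only. A match describes these letters and is not a measured site.

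At 500 µg/mL, 50 genes were higher and 73 lower than at 20 µg/mL, out of 17461 tested. A gene counted as called where edgeR's quasi-likelihood test gave a p under 0.05 after Benjamini-Hochberg adjustment, in 1 fit over 27 libraries from 10 groups. That test gives every adjusted p below. The calls are 0.704% of genes tested, with 0.286% higher and 0.418% lower. Counts of called members in the lists below stand beside these shares. Most differences were modest: 2 called genes were at least 2-fold higher, CYP1A1 and LY6K, and 5 at least 2-fold lower, NR4A1, NR4A2, NR4A3, MUC16 and WNT6. The median absolute log2 fold change over called genes was 0.39. In all 123 called genes the 3 libraries of one dose lay above the 3 of the other, as they did in 2108 of all genes tested. Fitted on the 6 libraries alone, the same test called 54 genes, 20 higher and 34 lower. Leaving out any 1 of the 6 libraries gave 70 to 108 calls, with 78, 79 and 70 when replicate 1, 2 or 3 at 500 µg/mL was left out and 76 without replicate 2 at 20 µg/mL. Of 43 called genes named by rule, 20 kept their call under all 17 alternatives: AHRR, ASNS, BMP6, CCL2, CYP1A1, CYP1B1, FGA, FGB, FGG, GREM1, HMOX1, NR4A1, NR4A2, NR4A3, PCK2, PTGS2, SMOC1, STC1, STC2 and TIPARP. Calls lost when 1 library was left out included those of CCN1, CPT1A, DUSP5, H19, INSL4, ISG20, JUP, MUC16, NIBAN1, PLIN2, RRAGD, SCD, SLC1A4, SQSTM1, SULT2B1, TGFBR2 and ULBP1.

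**Figure D1:**
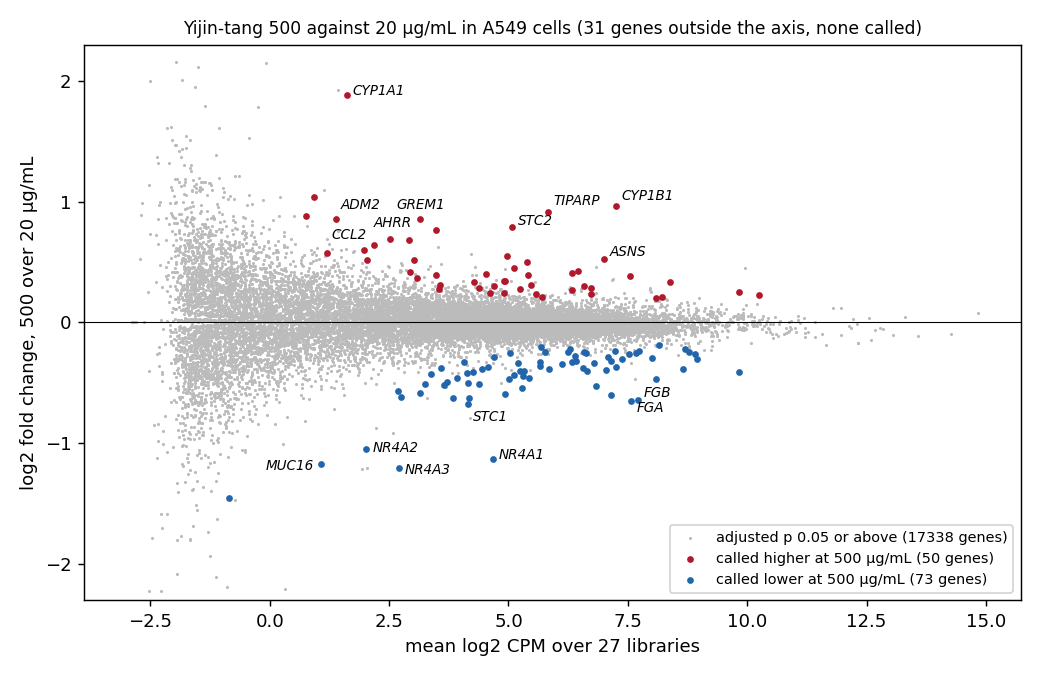
Log2 fold change of Yijin-tang 500 over 20 µg/mL (vertical axis) against mean log2 CPM over 27 libraries (horizontal axis), 1 point a gene, with called genes in red (50 higher) and blue (73 lower). CYP1A1 is the highest called gene with 1.88, and the NR4A genes lie near the bottom with -1.05 to -1.20.

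Targets of the aryl hydrocarbon receptor held 3 of the 5 largest increases among all called genes: CYP1A1, CYP1B1 and TIPARP. AHRR was also called higher but ranked below other genes such as GREM1, ADM2 and STC2. Of 10 listed targets 8 were tested, 4 were called higher and none lower, beside 0.286% of all genes called higher. The median log2 fold change over the 8 was 0.49, beside 0.00 over all genes tested. Their list was written with earlier results of these data known.

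CYP1A1 (ENSG00000140465, chromosome 15, 74719542 to 74725610, minus strand, GRCh38, GENCODE 29) had 6.07, 5.86 and 6.12 CPM at 500 µg/mL, against 1.58, 1.38 and 1.96 CPM at 20 µg/mL. CPM are counts scaled to a common library total after TMM adjustment, which corrects totals for composition, and are not divided by gene length. The groups did not overlap, and the log2 fold change of 500 over 20 µg/mL was 1.88 ± 0.15 (SE; adjusted p = 3.01e-08). Differences below are such log2 fold changes unless a unit is given. Its level at 100 µg/mL was 3.499, 3.48 and 3.31 CPM, between both, and vehicle libraries had 0.627, 1.24 and 0.751 CPM.

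CYP1B1 (ENSG00000138061, chromosome 2, 38066973 to 38109902, minus strand) had 211, 228 and 229 CPM at 500 µg/mL, against 117, 116 and 108 CPM at 20 µg/mL. Every library at 500 µg/mL was above every library at 20 µg/mL, with a log2 fold change of 0.97 ± 0.062 (SE; adjusted p = 8.63e-10). TIPARP (ENSG00000163659, chromosome 3, 156673235 to 156706770, plus strand), an enzyme that marks the receptor with ADP-ribose, had 77.6, 86.9 and 87.9 CPM at 500 µg/mL, against 43.9, 47.2 and 43.1 CPM at 20 µg/mL. The groups were again apart, by 0.91 ± 0.075 (SE; adjusted p = 3.01e-08). AHRR (ENSG00000063438, chromosome 5, 304176 to 438291, plus strand), which competes with the receptor for ARNT, had 8.07, 7.502 and 7.39 CPM at 500 µg/mL, against 5.22, 4.78 and 4.23 CPM at 20 µg/mL. It too showed no overlap, and its log2 fold change was 0.69 ± 0.11 (SE; adjusted p = 0.00176). Vehicle libraries had 104, 99.8 and 98.4 CPM of CYP1B1, 40.3, 39.9 and 41.7 CPM of TIPARP and 6.38, 5.45 and 4.03 CPM of AHRR.

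The other tested targets did not pass. NQO1, a quinone reductase, had 1729.5, 1598 and 1750.1 CPM at 500 µg/mL and 1634, 1613 and 1799 CPM at 20 µg/mL, and the doses overlapped, with a log2 fold change of 0.01. ALDH3A1 and UGT1A6, enzymes of aldehyde oxidation and glucuronidation, had log2 fold changes of 0.07 and 0.30, with UGT1A6 sharing exons with other UGT1A genes and its counts therefore uncertain. The amino acid transporter SLC7A5 had 0.12 (adjusted p = 0.665). CYP1A2 and LRAT had too few counts to be tested. The receptor itself, AHR, had 44.5, 47.8 and 50.9 CPM at 500 µg/mL and 62.5, 59.1 and 50.03 CPM at 20 µg/mL, values that overlapped, and its log2 fold change was -0.26 ± 0.10 (SE) with adjusted p = 0.43. None of the 7 genes of the receptor's own machinery was called, ARNT among them at -0.06.

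**Figure D2:**
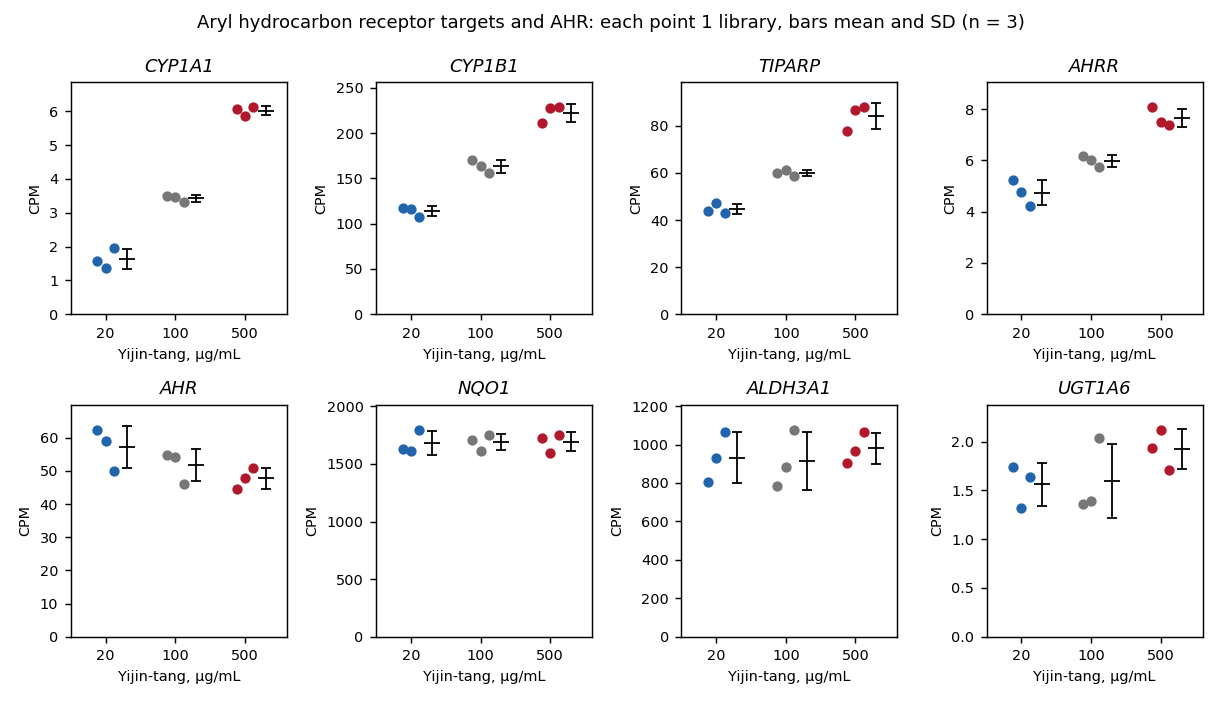
CPM (vertical axis, from 0) of 7 receptor targets and AHR in each Yijin-tang library, by dose from 20 to 500 µg/mL (horizontal axis); points are libraries, and bars give the mean and SD of 3. The 3 doses of CYP1A1, CYP1B1, TIPARP and AHRR are stepped with no overlap, whereas those of AHR, NQO1, ALDH3A1 and UGT1A6 overlap.

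In the integrated stress response, 7 genes were higher at 500 µg/mL and none was lower, beside 0.286% higher and 0.418% lower over all genes tested. The list has 20 genes, all tested, and 18 had a log2 fold change above 0, with a median of 0.19. Of the 7, 3 make amino acids or feed their synthesis: ASNS (asparagine), PHGDH and PSAT1 (both serine). The rest were STC2, a secreted glycoprotein, CHAC1, which degrades glutathione, PCK2, a mitochondrial enzyme that makes phosphoenolpyruvate, and TRIB3, a pseudokinase that restrains ATF4.

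STC2 (ENSG00000113739, chromosome 5, 173314713 to 173329503, minus strand) had 35.7, 33.8 and 33.2 CPM at 500 µg/mL, against 19.1, 20.8 and 19.6 CPM at 20 µg/mL. The libraries of the doses were far apart, with a log2 fold change of 0.79 ± 0.065 (SE; adjusted p = 3.01e-08). ASNS (ENSG00000070669, chromosome 7, 97852118 to 97872542, minus strand) had 149, 142 and 143 CPM at 500 µg/mL, against 93.8, 102 and 106 CPM at 20 µg/mL. Its groups did not overlap and differed by 0.52 ± 0.057 (SE; adjusted p = 5.81e-06). CHAC1 had 7.598, 7.57 and 7.54 CPM at 500 µg/mL, against 4.17, 5.13 and 4.81 CPM at 20 µg/mL, the 3 libraries at 500 µg/mL being nearly equal. Its log2 fold change was 0.68 ± 0.12 (SE; adjusted p = 0.00424).

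PCK2 averaged 44.98 ± 2.0 CPM at 500 µg/mL and 31.8 ± 1.8 CPM at 20 µg/mL (SD, n = 3 each), a log2 fold change of 0.50 ± 0.066 (SE; adjusted p = 9.06e-05). TRIB3 averaged 85.7 ± 2.5 CPM at 500 µg/mL and 63.7 ± 5.4 CPM at 20 µg/mL, which is 0.43 ± 0.083 (SE; adjusted p = 0.00825). PHGDH averaged 87.5 ± 5.0 CPM at 500 µg/mL and 65.9 ± 5.0 CPM at 20 µg/mL, which is 0.41 ± 0.073 (SE; adjusted p = 0.00371). PSAT1 averaged 367 ± 9.1 CPM at 500 µg/mL and 290.2 ± 9.7 CPM at 20 µg/mL, which is 0.34 ± 0.051 (SE; adjusted p = 5.87e-04). In each of these 4 the lowest library at 500 µg/mL was above the highest at 20 µg/mL. ATF4, the factor itself, had a log2 fold change of 0.08 (adjusted p = 0.908), DDIT3 had 0.41 (adjusted p = 0.117) and ATF3 had 0.06 (adjusted p = 0.972), none of which passed. DDIT3, a transcription factor of prolonged stress, nevertheless had 9.94, 9.88 and 10.1 CPM at 500 µg/mL and 7.55, 7.54 and 7.5 CPM at 20 µg/mL, with no overlap.

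Outside that list the naming rule gave SLC1A4, ADM2, NIBAN1 and ULBP1, all higher. SLC1A4, a transporter of serine and alanine and the 1 called of 11 tested amino acid carriers, had a log2 fold change of 0.27 ± 0.058 (SE; adjusted p = 0.0184). Of 3 enzymes picked after their values were seen, for which no list was tested, ALDH1L2 (mitochondrial folate) had 0.55 ± 0.10 (SE; adjusted p = 0.00678), CBS (transsulfuration) had 0.34 ± 0.058 (SE; adjusted p = 0.00209) and GPT2 (alanine) had 0.30 ± 0.059 (SE; adjusted p = 0.00878). ADM2, a peptide hormone, had 2.58, 2.54 and 2.42 CPM at 500 µg/mL, against 1.15, 1.44 and 1.57 CPM at 20 µg/mL. Its level at 100 µg/mL, 1.25, 1.39 and 1.08 CPM, was no higher than at 20 µg/mL, and the log2 fold change of 500 over 20 µg/mL was 0.86 ± 0.16 (SE; adjusted p = 0.0048). NIBAN1, a stress-induced protein, had 8.51, 9.98 and 9.88 CPM at 500 µg/mL, against 5.98, 5.6 and 5.16 CPM at 20 µg/mL, a log2 fold change of 0.76 ± 0.14 (SE; adjusted p = 0.00678) with no overlap. ULBP1, a ligand that natural killer cells read as stress, had 0.60 (adjusted p = 0.0332).

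**Figure D3:**
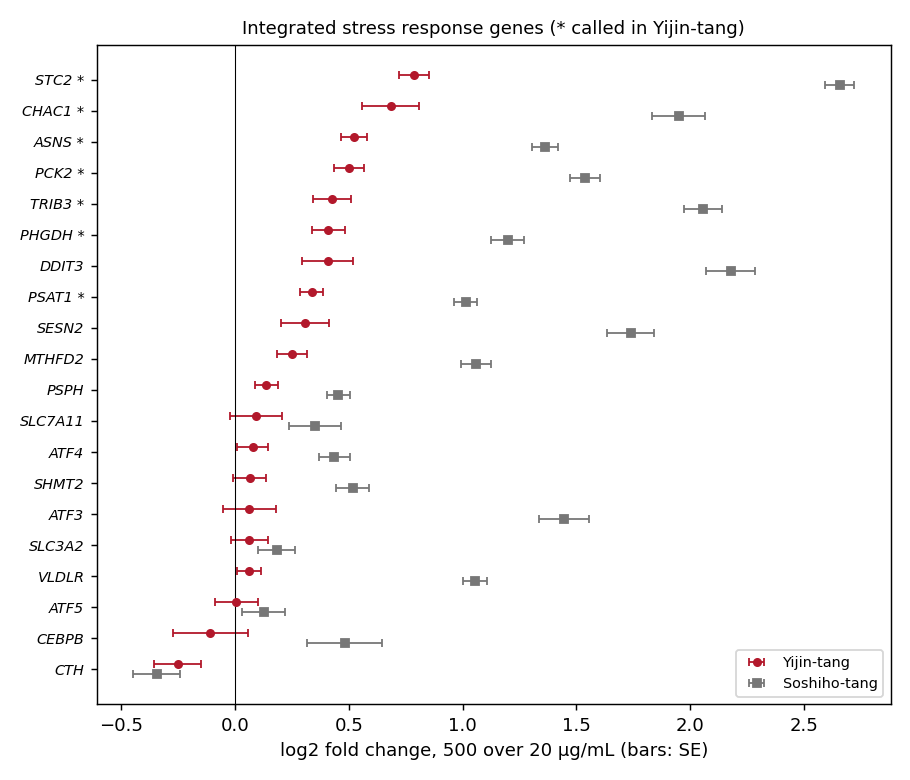
Log2 fold change of 500 over 20 µg/mL (horizontal axis, bars 1 SE) of the 20 integrated stress response genes (rows) in Yijin-tang (red) and Soshiho-tang (grey), with asterisks for genes called in Yijin-tang. STC2 leads at 0.79 in Yijin-tang, and 15 of the 20 genes had dose effects that differed between the formulas.

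All 3 NR4A receptors were lower at 500 µg/mL, and they were 3 of the 5 genes lower by 2-fold or more. NR4A1 (ENSG00000123358, chromosome 12, 52022832 to 52059507, plus strand) had 14.5, 14.8 and 13.2 CPM at 500 µg/mL, against 29.9, 32.5 and 30.7 CPM at 20 µg/mL. No library overlapped, and the log2 fold change was -1.13 ± 0.079 (SE; adjusted p = 2.06e-09). NR4A2 (ENSG00000153234, chromosome 2, 156324432 to 156342348, minus strand) had 2.44, 2.32 and 2.54 CPM at 500 µg/mL, against 4.96, 5.45 and 4.71 CPM at 20 µg/mL. It was lower in every library at 500 µg/mL, at -1.05 ± 0.14 (SE; adjusted p = 6.47e-05). NR4A3 (ENSG00000119508, chromosome 9, 99821855 to 99866891, plus strand) had 3.32, 3.799 and 3.25 CPM at 500 µg/mL, against 7.81, 8.91 and 7.12 CPM at 20 µg/mL. Its groups were apart as well, at -1.20 ± 0.10 (SE; adjusted p = 6.29e-08).

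Immediate early genes as a whole showed no common direction. Of 18 tested AP-1, EGR and NR4A genes, 8 had a log2 fold change above 0, and the median was -0.01. Among the 18, 3 were called lower (the NR4A genes) and 1 higher, beside 0.418% lower and 0.286% higher over all genes tested. The gene called higher was JUN, a subunit of AP-1, with 32.97, 32.6 and 30.2 CPM at 500 µg/mL, against 24.2, 24.9 and 26.2 CPM at 20 µg/mL. Its doses did not overlap, at 0.35 ± 0.063 (SE; adjusted p = 0.00421). FOS, its partner, had 3.15, 3.06 and 2.99 CPM at 500 µg/mL and 4.07, 4.25 and 4.68 CPM at 20 µg/mL, no overlap, and a log2 fold change of -0.50 ± 0.13 (SE) that did not pass (adjusted p = 0.0793). EGR1 overlapped between doses, at 0.35 (adjusted p = 0.876). Of 16 EGFR ligands and MAPK feedback genes, DUSP5, a phosphatase that switches off ERK, was the 1 called, beside 0.418% of all genes called lower. DUSP5 had 44.1, 43.7 and 45.3 CPM at 500 µg/mL, against 49.3, 55.1 and 53.1 CPM at 20 µg/mL, and a log2 fold change of -0.24 ± 0.052 (SE; adjusted p = 0.0197).

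The 3 fibrinogen genes, which lie next to each other on chromosome 4, were all lower at 500 µg/mL, with log2 fold changes of -0.60 to -0.65. FGA (ENSG00000171560, chromosome 4, 154583126 to 154590766, minus strand) had 149, 143 and 149.7 CPM at 500 µg/mL, against 229.8, 221 and 245 CPM at 20 µg/mL. The groups were well apart, at -0.65 ± 0.045 (SE; adjusted p = 2.06e-09). FGB (ENSG00000171564, chromosome 4, 154562956 to 154571086, plus strand) had 155, 158 and 168 CPM at 500 µg/mL, against 236, 241 and 276 CPM at 20 µg/mL, likewise without overlap, at -0.64 ± 0.071 (SE; adjusted p = 5.81e-06). FGG (ENSG00000171557, chromosome 4, 154604134 to 154612967, minus strand) had 110.1, 109 and 111 CPM at 500 µg/mL, against 164, 159 and 178 CPM at 20 µg/mL. Its 3 libraries at 500 µg/mL lay within 2 CPM of each other, and the log2 fold change was -0.60 ± 0.051 (SE; adjusted p = 4.29e-08).

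These 3 were on the hepatocyte marker list, whose summed level was 411.5 to 429 CPM in libraries at 500 µg/mL and 622 to 699.6 at 20 µg/mL. The defining hepatocyte markers ALB, TTR and CYP3A4 held at most 1 count in each of the 6 libraries, APOA1 held 1 to 5, and SERPINA1 had a log2 fold change of -0.31 (adjusted p = 0.909). In bulk RNA fewer A549 cells expressing the fibrinogen genes and less of their RNA per cell cannot be told apart. HNF4A, a transcription factor of liver and gut epithelium picked after its values were seen, had 77.6, 76.4 and 73.9 CPM at 500 µg/mL, against 95.7, 98.04 and 90.003 CPM at 20 µg/mL. Every library at 500 µg/mL was lower, at -0.32 ± 0.055 (SE; adjusted p = 0.00312). CPS1, the first enzyme of the urea cycle, was also lower, at -0.38 ± 0.076 (SE; adjusted p = 0.00973).

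**Figure D4:**
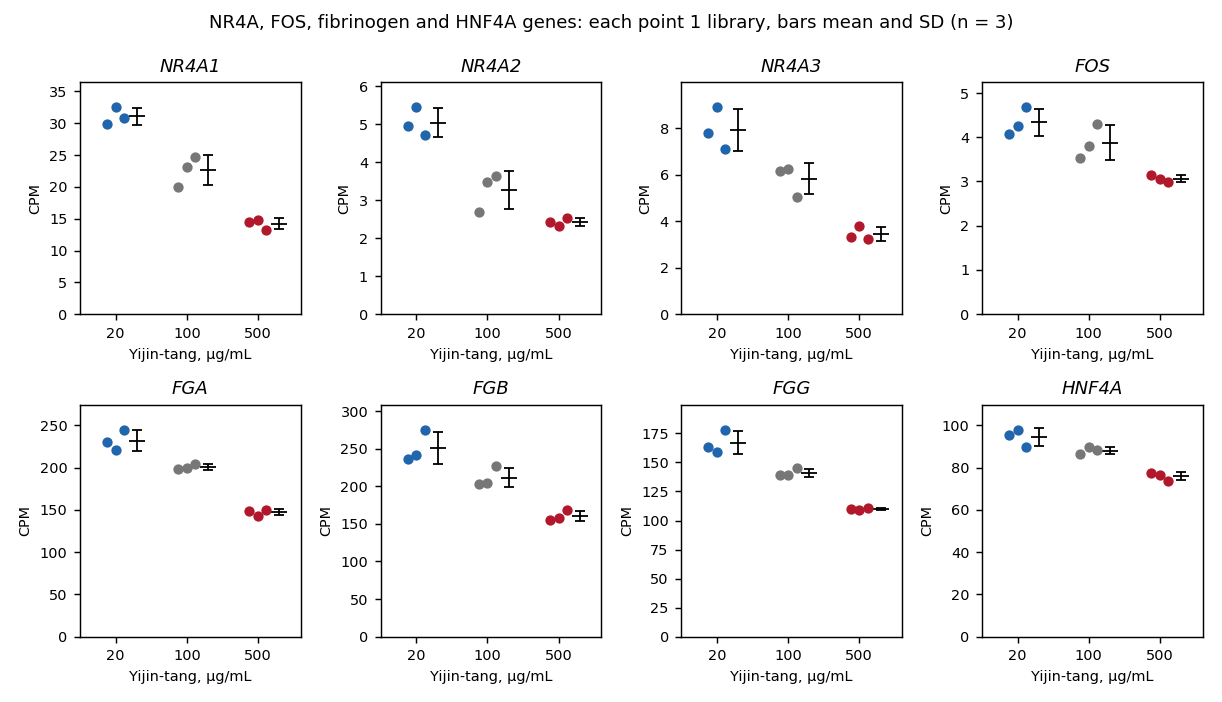
CPM (vertical axis, from 0) of the NR4A genes, FOS, the fibrinogen genes and HNF4A in each Yijin-tang library by dose from 20 to 500 µg/mL (horizontal axis); points are libraries, and bars give the mean and SD of 3. In all 8 panels every library at 500 µg/mL lies below every library at 20 µg/mL, and FOS alone among them did not pass the test.

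Further named genes encode secreted signals and surface proteins. GREM1, which blocks BMP ligands outside the cell, had 12.1, 12.5 and 12.2 CPM at 500 µg/mL, against 7.36, 6.597 and 6.35 CPM at 20 µg/mL. The doses did not overlap, at 0.86 ± 0.11 (SE; adjusted p = 4.69e-05), and GREM1 was the 1 called of 11 tested genes in its list of BMP signals and ID genes. BMP6, a BMP ligand not on that list, had 10.8, 11.6 and 10.9 CPM at 500 µg/mL, against 16.5, 18.1 and 16.8 CPM at 20 µg/mL, without overlap and lower, at -0.63 ± 0.083 (SE; adjusted p = 9.36e-05). STC1, a secreted regulator of calcium and phosphate, had 11.8, 14.8 and 13.5 CPM at 500 µg/mL, against 20.5, 22.1 and 21.5 CPM at 20 µg/mL. It was lower in each library at 500 µg/mL, at -0.67 ± 0.10 (SE; adjusted p = 8.04e-04), whereas its relative STC2 was higher.

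INSL4, a hormone of the insulin family, averaged 14.3 ± 0.42 CPM at 500 µg/mL and 22.1 ± 4.0 CPM at 20 µg/mL (SD, n = 3 each), a log2 fold change of -0.62 ± 0.13 (SE; adjusted p = 0.0115). GPR37, an orphan receptor, averaged 4.87 ± 0.44 CPM at 500 µg/mL and 7.47 ± 0.71 CPM at 20 µg/mL, which is -0.62 ± 0.10 (SE; adjusted p = 0.00163). MUC16, the membrane mucin measured as CA125, had 0.814, 1.61 and 1.01 CPM at 500 µg/mL, against 2.495, 3.02 and 2.21 CPM at 20 µg/mL. Its libraries were few in counts but apart, at -1.17 ± 0.23 (SE; adjusted p = 0.00927). Of 8 tested mucins MUC16 was the 1 called, beside 0.418% of all genes called lower. MUC5AC, the secreted airway mucin, overlapped between doses at -0.10 (adjusted p = 0.948).

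Inflammatory genes gave 1 call each way among 14 tested, beside 0.286% higher and 0.418% lower over all genes tested. CCL2, which draws monocytes, had 6.27, 5.76 and 5.796 CPM at 500 µg/mL, against 3.55, 3.9 and 3.97 CPM at 20 µg/mL. It was higher in each library at 500 µg/mL, by 0.64 ± 0.10 (SE; adjusted p = 0.00121). PTGS2, the inducible cyclooxygenase that makes prostaglandin precursors, had 21.4, 20.99 and 27.8 CPM at 500 µg/mL, against 35.3, 36.2 and 34.4 CPM at 20 µg/mL. Its groups did not overlap and it was lower, at -0.59 ± 0.11 (SE; adjusted p = 0.00421). The exonuclease ISG20, which interferon induces, was lower at -0.43 ± 0.094 (SE; adjusted p = 0.0253), and the median over 16 tested interferon-stimulated genes was 0.01.

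Of 11 tested glucocorticoid receptor targets 2 were called lower, beside 0.418% of all genes tested. The median of the list was -0.04, and 4 of the 11 had a log2 fold change above 0. KLF9, a transcription factor, had 4.41, 4.31 and 4.88 CPM at 500 µg/mL, against 7.29, 7.21 and 5.74 CPM at 20 µg/mL, with a log2 fold change of -0.57 ± 0.096 (SE; adjusted p = 0.00195). SGK1, a kinase that regulates ion channels, averaged 46.1 ± 2.9 CPM at 500 µg/mL and 57.8 ± 3.0 CPM at 20 µg/mL, which is -0.32 ± 0.058 (SE; adjusted p = 0.00383). FKBP5 and PER1, targets of the same receptor, did not pass, at -0.02 and -0.13. JUP, a junction plaque protein, was lower at -0.47 ± 0.096 (SE; adjusted p = 0.0136), SULT2B1, a steroid sulfotransferase, at -0.51 ± 0.11 (SE; adjusted p = 0.0151), and TGFBR2, a receptor of TGF-beta, at -0.25 ± 0.051 (SE; adjusted p = 0.0134). H19, an imprinted non-coding RNA, was lower at -0.53 ± 0.12 (SE; adjusted p = 0.0235) and SMOC1, a matrix protein that binds BMPs, at -0.50 ± 0.075 (SE; adjusted p = 4.88e-04).

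Single genes of lipid and iron handling were called higher, by small shifts. They were 1 of 14 tested in fatty acid synthesis, 2 of 8 in fatty acid oxidation and lipid droplets and 1 of 9 in iron handling. The medians of these lists were 0.07, 0.01 and 0.06 in that order, and 0.286% of all genes tested were called higher. SCD, the enzyme that makes monounsaturated fatty acids, had 1516, 1671 and 1546 CPM at 500 µg/mL, against 1346, 1418 and 1275 CPM at 20 µg/mL. The lowest library at 500 µg/mL was above the highest at 20 µg/mL, and the log2 fold change was 0.23 ± 0.052 (SE; adjusted p = 0.0311). PLIN2, which coats lipid droplets, averaged 21.6 ± 0.46 CPM at 500 µg/mL and 17.1 ± 0.69 CPM at 20 µg/mL, which is 0.33 ± 0.071 (SE; adjusted p = 0.0171). CPT1A, which takes fatty acids into mitochondria, averaged 103 ± 2.2 CPM at 500 µg/mL and 83.4 ± 6.7 CPM at 20 µg/mL, which is 0.30 ± 0.072 (SE; adjusted p = 0.047). Leaving out 1 library lost the SCD and PLIN2 calls in 4 of 6 cases each and the CPT1A call in 5.

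HMOX1, the enzyme that breaks down heme, had 216, 214 and 215 CPM at 500 µg/mL, against 149.9, 167 and 178 CPM at 20 µg/mL. It was higher in each library at 500 µg/mL, by 0.38 ± 0.059 (SE; adjusted p = 7.06e-04). Of 22 NRF2 targets, whose median was -0.04, HMOX1 was the 1 called, beside 0.286% of all genes called higher. SQSTM1, a receptor for autophagy, was higher by 0.25 ± 0.058 (SE; adjusted p = 0.0323), RRAGD, a GTPase that signals amino acid supply at the lysosome, by 0.57 ± 0.13 (SE; adjusted p = 0.0384), and CCN1, a matrix-associated signal, by 0.25 ± 0.059 (SE; adjusted p = 0.0497). CCN1 lies close to the threshold, and its call was lost in 5 of the 6 cases in which 1 library was left out.

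No member was called in many other lists: 24 genes of DNA replication, 25 of mitosis, 20 targets of p53, 13 heat shock genes, 16 chaperones of the endoplasmic reticulum, 20 hypoxia targets, 17 glycolysis enzymes, 24 of cholesterol synthesis and uptake, 25 ribosomal proteins, 24 of the nuclear respiratory chain and 13 mitochondrially encoded messenger RNAs. As 0.704% of all genes tested were called, lists of this size could easily hold no call, and these zeros do not show a lack of change. The medians of these lists lay between -0.10 and 0.08, beside 0.00 over all genes tested. Log2 fold changes above 0 were few in replication (1 of 24), mitosis (2 of 25), heat shock (1 of 13) and mitochondrially encoded (2 of 13) genes. They made up most p53 targets (16 of 20), cholesterol genes (20 of 24), chaperones (13 of 16), ribosomal proteins (19 of 25) and respiratory chain genes (18 of 24). Hypoxia targets had 10 of 20 and glycolysis enzymes 8 of 17, and none of these counts was tested. MKI67, a marker of dividing cells, had 579.8, 628 and 539 CPM at 500 µg/mL and 681, 669.9 and 543 CPM at 20 µg/mL, and the doses overlapped at -0.12 (adjusted p = 0.886). CDKN1A, the cell cycle inhibitor under p53, was at 0.06 (adjusted p = 0.959), and GDF15, a stress cytokine, at 0.18 (adjusted p = 0.784). HMGCS1, which begins cholesterol synthesis, was at 0.12 (adjusted p = 0.745).

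The dose of 100 µg/mL divides the range into 2 steps of 5-fold each. Over the upper step, 500 against 100 µg/mL, 18 genes were called (10 higher and 8 lower, 0.103% of genes tested). Over the lower, 100 against 20 µg/mL, there were 4 (3 higher and 1 lower, 0.0229%): CYP1A1, CYP1B1, TIPARP and NR4A1. The same 4 were called over the upper step. Leaving out 1 library gave 10 to 17 calls over the upper and 1 to 3 over the lower step, and the 6 libraries of the lower step alone gave 0. Same-numbered libraries at 100 and 20 µg/mL deviated together, and with the replicate number as a block those 6 libraries gave 16 calls and the 9 Yijin-tang libraries 3. CYP1A1 differed by 0.81 ± 0.14 (SE; adjusted p = 0.00801) over the upper and 1.07 ± 0.16 (SE; adjusted p = 0.00638) over the lower step. CYP1B1 differed by 0.44 ± 0.061 (SE; adjusted p = 6.06e-04) and 0.52 ± 0.062 (SE; adjusted p = 2.10e-04) in that order, TIPARP by 0.49 ± 0.074 (SE; adjusted p = 0.00155) and 0.42 ± 0.075 (SE; adjusted p = 0.0455), and NR4A1 by -0.68 ± 0.081 (SE; adjusted p = 8.78e-05) and -0.46 ± 0.077 (SE; adjusted p = 0.0235).

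The stress response genes STC2, ASNS and PCK2 and the 3 fibrinogens were called over the upper step and not over the lower. STC2 had 19.1, 20.8 and 19.6 CPM at 20 µg/mL, 21.9, 22.8 and 22.4 CPM at 100 µg/mL and 35.7, 33.8 and 33.2 CPM at 500 µg/mL, a difference of 0.61 ± 0.065 (SE) over the upper step and 0.17 ± 0.066 (SE) over the lower. FGA had 229.8, 221 and 245 CPM at 20 µg/mL, 198, 199 and 204 CPM at 100 µg/mL and 149, 143 and 149.7 CPM at 500 µg/mL, with -0.45 ± 0.045 (SE) and -0.21 ± 0.045 (SE). ADM2 (1.02) and KLF9 (-0.58) were called over the upper step too, with lower-step values of -0.16 and 0.01. Being called over one step and not the other does not show a difference between steps. That difference was tested for all genes, and 0 were called (0% of genes tested; 400 had an unadjusted p under 0.05, and DESeq2 called 2). In the simulated counts described under processing, this contrast recovered 25% of log2 changes of 0.5 and 89% of changes of 1. The 0 calls therefore do not show that the steps were equal.

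The mean at 100 µg/mL lay between the means at 20 and 500 µg/mL in 45 of the 50 genes called higher and 72 of the 73 called lower, beside 40.5% of all genes tested. Both end doses chose these genes, so that share is a description. The exceptions were ADM2, CCN1, MARCHF4, PAQR5 and RAB29 among the higher and KLF9 among the lower genes. The median step among genes called higher was 0.27 in the upper and 0.12 in the lower step, and among genes called lower it was -0.22 and -0.15.

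Soshiho-tang, a different formula tested at the same doses, shares no library with this comparison. Its own contrast of 500 with 20 µg/mL called 3588 genes (20.5% of genes tested). Of the 123 genes called in Yijin-tang, 100 were called in the same direction in Soshiho-tang, which is 81.3% of the Yijin-tang calls and 2.79% of the Soshiho-tang calls, and 2 of the genes higher and 4 of the genes lower in Yijin-tang were called in the opposite direction. The dose effects of the formulas differed, in a test of the difference itself, for 705 genes (308 higher and 397 lower in Yijin-tang minus Soshiho-tang, 4.04%). Among them were 31 of the 50 genes called higher and 21 of the 73 called lower, and the larger effect was in Soshiho-tang for 24 and 14 of these. Without replicate 2 of Soshiho-tang at 500 µg/mL, 454 of all genes differed.

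The receptor targets were among the exceptions, with the larger dose effect in Yijin-tang. CYP1A1 had dose effects of 1.88 in Yijin-tang and 0.09 in Soshiho-tang, a difference of 1.79 ± 0.21 (SE; adjusted p = 6.19e-06). Soshiho-tang libraries averaged 3.27 ± 0.24 CPM at 500 µg/mL and 3.08 ± 0.042 CPM at 20 µg/mL (SD, n = 3 each), so that its level was above the vehicle libraries at both doses without a called difference between them. CYP1B1 differed between formulas by 0.85 ± 0.087 (SE; adjusted p = 5.97e-07), TIPARP by 0.68 ± 0.11 (SE; adjusted p = 1.86e-04) and AHRR by 0.70 ± 0.16 (SE; adjusted p = 0.0133). Of the 8 tested targets these 4 were the ones called.

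For stress response genes the difference ran the other way. STC2 had 0.79 in Yijin-tang and 2.66 in Soshiho-tang, a difference of -1.87 ± 0.090 (SE; adjusted p = 1.78e-12). NIBAN1 had 0.76 and 3.00 in that order (adjusted p = 8.15e-08 for the difference), and ADM2 0.86 and 2.80 (adjusted p = 2.61e-06). Over the 20 genes the median was 0.19 in Yijin-tang and 1.06 in Soshiho-tang, and the dose effects of 15 differed. Fibrinogens were lowered less in Yijin-tang, by differences of 0.46 ± 0.064 (SE; adjusted p = 5.26e-05) for FGA, 0.51 ± 0.10 (SE; adjusted p = 0.00262) for FGB and 0.28 ± 0.071 (SE; adjusted p = 0.0263) for FGG. The FGG difference lost its call in 8 of the 12 cases in which 1 library was left out. Mitosis genes had a median of -0.08 in Yijin-tang, with 0 of 25 called, and -0.41 in Soshiho-tang, with 25 called lower, and 17 of the 25 dose effects differed.

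NR4A1 fell more in Yijin-tang, at -1.13 against -0.66 in Soshiho-tang, a difference of -0.48 ± 0.11 (SE; adjusted p = 0.0126). For NR4A2 and NR4A3 no difference was called, at -0.24 ± 0.19 (SE; adjusted p = 0.605) and 0.09 ± 0.15 (SE; adjusted p = 0.847). Some genes moved in opposite directions. CCL2 had 0.64 in Yijin-tang and -0.79 in Soshiho-tang, a difference of 1.43 ± 0.15 (SE; adjusted p = 1.07e-06). SMOC1 had -0.50 and 0.68, which differed by -1.19 ± 0.10 (SE; adjusted p = 6.24e-08), and DUSP5 had -0.24 and 0.56, which differed by -0.81 ± 0.073 (SE; adjusted p = 9.93e-08). SCD had 0.23 and -0.21, which differed by 0.44 ± 0.073 (SE; adjusted p = 4.28e-04).

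**Figure D5:**
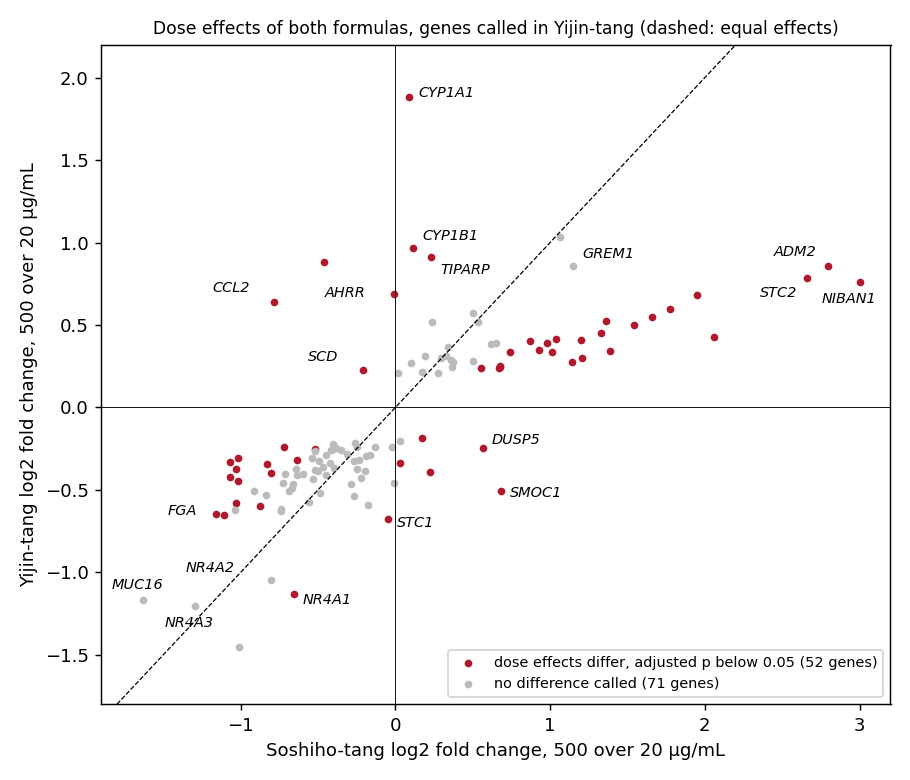
Log2 fold change of 500 over 20 µg/mL in Yijin-tang (vertical axis) against that in Soshiho-tang (horizontal axis) for the 123 genes called in Yijin-tang; red marks the 52 whose dose effects differ by test, and the dashed line is equality. CYP1A1 stands at 1.88 in Yijin-tang and 0.09 in Soshiho-tang, and STC2 at 0.79 and 2.66.

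Okbyeongpung-san had 2 libraries a dose, 1 of each labelled batch D and the other batch E, and its own contrast of 500 with 20 µg/mL called 278 genes (1.59%). Its batch E library at 500 µg/mL stood apart, with 38008463 counts and 9.89% mitochondrial messenger RNA, and the difference in dose effect from Yijin-tang changed with it: 28 genes were called (0.16%; 15 higher and 13 lower), 14 without that library and 2553 without the batch D library at that dose. Without the batch E or the batch D library at 20 µg/mL, 18 and 10 were called, and within batch E alone, where Okbyeongpung-san has 1 library a dose, 617. The dose effects of the receptor targets were not called different, at 1.88 in Yijin-tang and 1.77 in Okbyeongpung-san for CYP1A1 (difference 0.11 ± 0.27 (SE; adjusted p = 0.903)), and at 0.97 and 0.72 for CYP1B1 (difference 0.24 ± 0.097 (SE; adjusted p = 0.364)). Cholesterol genes differed: HMGCS1 had 0.12 in Yijin-tang and -0.76 in Okbyeongpung-san (difference 0.87 ± 0.099 (SE; adjusted p = 3.11e-05)), and 7 of the 24 differed. SCD had 0.23 and -0.91 (difference 1.14 ± 0.082 (SE; adjusted p = 1.19e-08)), and NR4A1 -1.13 and -0.40 (difference -0.73 ± 0.12 (SE; adjusted p = 0.00534)). The NR4A1 difference lost its call without the library that stood apart and without the batch D library at 20 µg/mL, whereas those of HMGCS1 and SCD kept theirs under all 19 alternatives.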

How the data were processed

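Messenger RNA libraries from total RNA of A549 cells were made with a directional kit and read as pairs of 100 bases, per the labels' protocols. The authors deposited expected counts per gene (RSEM 1.3.3 after Trim Galore 0.6.5, FastQC 0.11.9 and STAR 2.7.3a on hg38, per the submitters' processing notes). Neither the gene annotation nor whether counting used strand is given in the sources used here, so overlapping antisense genes cannot be told apart. The table lists 60675 identifiers in 30 columns of samples, beside 30 columns that are empty, and 41209 identifiers matched a symbol. Coordinates are GRCh38 from GENCODE 29.

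Expected counts were rounded, genes with low counts removed with filterByExpr, and 17461 genes tested with edgeR 4.0.16 in R 4.3.3 (TMM, glmQLFit, glmQLFTest, Benjamini-Hochberg, threshold 0.05). The fit held the 27 libraries of 10 groups with at least 2 libraries, so the spread is shared by all groups; its biological coefficient of variation was 6.89%. SEs were derived from the fold change and the F statistic of each gene. Differences in dose effect and between steps are contrasts in that fit. The 6 libraries compared are all labelled batch E. Counts of 17461 genes were simulated with the fit's own spread and no replicate effect. Changes of 0.5 and of 1 on the log2 scale were put into 100 genes each, all above a mean log2 CPM of 1. For 500 against 20 µg/mL the test recovered 83% and 99% of them, and 14 of its 196 calls were unchanged genes. Recovery was not simulated for changes as small as 0.39, the median over called genes, or for genes of lower level.

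Members and lists were chosen with earlier results of these data known. Genes were named by rule: the 12 largest called changes each way at a mean log2 CPM of at least 1, called receptor targets, up to 3 called members of each other list by adjusted p, and a few set genes. For the other contrasts the rule adds the 4 largest each way. Any further gene was picked after its values were seen, including TRIB3, PHGDH, PSAT1, ALDH1L2, CBS, GPT2, JUN, FOS, CPS1 and HNF4A. Replicate libraries of a group differed by more than counting noise, with a mean chi-square per gene of 5.56 to 19.2 over 9 pairs where noise alone gives 1, and all entered as separate libraries. Replicate numbers of the titles mark no shared animal, day or batch in the labels. In deviations from group means over 12586 genes, same-numbered libraries at 100 and 20 µg/mL correlated at 0.467, 0.318 and 0.487, all over 0.1. Those at 500 and 20 µg/mL, and at 500 and 100 µg/mL, were not all over 0.1. Differently numbered libraries of different formulas correlated as highly, such as Yijin-tang 500 replicate 2 with Soshiho-tang 100 replicate 3 at 0.487. These values therefore do not establish pairing. Values given for the steps come from the fit without a replicate block, and calls with a block are given beside them. Alternatives were other normalizations, filters, tools (DESeq2 1.42.0), sets of libraries, a replicate block and leaving out each replicate.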

Additional observations from a re-analysis of the deposited data

Results flagged for a closer look

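Of 58 genes named by rule, 31 had a dose effect that differed between Yijin-tang and Soshiho-tang in the edgeR test of the difference. Of these, 14 had a higher and 17 a lower value in Yijin-tang. Over all genes tested 4.04% differed. The 58 include the 4 largest calls each way of this same contrast, so the count was partly set by the choice of genes and is a description. Values are Yijin-tang minus Soshiho-tang on the log2 scale. The 4 receptor targets were higher, CYP1A1 by 1.79, CYP1B1 by 0.85, AHRR by 0.70 and TIPARP by 0.68. Genes of stress and amino acid supply had lower values: NIBAN1 -2.24, ADM2 -1.94, STC2 -1.87, DDIT3 -1.77, CHAC1 -1.27, ULBP1 -1.18, PCK2 -1.04, GDF15 -1.02, SLC1A4 -0.87, ASNS -0.84, SQSTM1 -0.42 and CDKN1A -0.36. SMOC1 (-1.19), DUSP5 (-0.81), STC1 (-0.62), NR4A1 (-0.48) and PLIN2 (-0.40) were lower too. The fibrinogens had values of 0.46 for FGA, 0.51 for FGB and 0.28 for FGG. CCL2 stood at 1.43, KLB (a co-receptor of fibroblast growth factors) at 1.08, HSPA1A (a heat shock chaperone with a near-identical copy, so its counts are uncertain) at 0.99, MKI67 at 0.63, HMGCS1 at 0.52, SCD at 0.44 and INSIG1, which restrains cholesterol synthesis, at 0.37.

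Against Okbyeongpung-san 10 of the 58 differed, 4 higher and 6 lower in Yijin-tang minus Okbyeongpung-san, beside 0.16% of all genes tested. Here too the 58 include the 4 largest calls each way of the contrast, so most of this count was set by the choice of genes. Lipid genes were higher, SCD by 1.14, INSIG1 by 0.91, HMGCS1 by 0.87 and STARD4, a sterol carrier, by 0.87. Lower were PCSK1N at -1.26, RARRES1 at -1.05, HTRA3 at -0.94, SMOC1 at -0.75, NR4A1 at -0.73 and HMOX1 at -0.45. These rest on 2 libraries a dose in Okbyeongpung-san, with that of replicate 2 at 500 µg/mL standing apart in depth. With 1 library left out, calls were lost for CDKN1A, FGG, INSIG1, PLIN2 and STC1 against Soshiho-tang and for HMOX1, NR4A1, PCSK1N, RARRES1 and SMOC1 against Okbyeongpung-san.

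Soyo-san, another formula, with 1 library a dose and so no test, also had the receptor targets above vehicle at 500 µg/mL. CYP1A1 was at 0.992 CPM at 20 µg/mL, 2.22 CPM at 100 µg/mL and 6.68 CPM at 500 µg/mL, where vehicle libraries had 0.627 to 1.24 CPM. At 500 µg/mL CYP1B1 was at 209.8 CPM (vehicle 98.4 to 104 CPM), TIPARP at 73.2 CPM (vehicle 39.9 to 41.7 CPM) and AHRR at 9.36 CPM (vehicle 4.03 to 6.38 CPM). These Soyo-san libraries are labelled batch D, whereas the vehicle libraries are batch E, so formula and batch cannot be told apart.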

How the results depend on the processing

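With no filter on low counts, 500 against 20 µg/mL gave 237 calls (108 higher and 129 lower), 500 against 100 gave 140, 100 against 20 gave 90, the difference between steps 83 and Yijin-tang minus Okbyeongpung-san 449. DESeq2 called 36, 7, 2 and 66 in the last 4 of these. Only the libraries of the groups compared gave 54 (20 higher and 34 lower) for 500 against 20, 0 for 100 against 20 and 4 for Yijin-tang minus Okbyeongpung-san. The 9 Yijin-tang libraries alone, a choice made after seeing the data, gave 56 (22 higher and 34 lower). Without the vehicle libraries 500 against 20 gave 96 calls (34 higher and 62 lower) and 100 against 20 gave 2. Within batch E, also chosen after seeing the data, Yijin-tang minus Okbyeongpung-san gave 617.

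Leaving out 1 library gave 70 to 108 calls for 500 against 20 µg/mL (28 to 43 higher, 40 to 65 lower), 10 to 17 for 500 against 100, 1 to 3 for 100 against 20 and 0 to 1 for the difference between steps. Yijin-tang minus Soshiho-tang gave 454 to 646, the lowest without Soshiho-tang 500 replicate 2, and Yijin-tang minus Okbyeongpung-san gave 10 to 2553. In that last contrast, the 2553 came without Okbyeongpung-san 500 replicate 3, and there were 14 without its replicate 2 and 18 and 10 without 20 µg/mL replicates 2 and 3. Called receptor targets stayed at 4 and stress response genes at 6 to 7. Without Okbyeongpung-san 500 replicate 2 in the shared fit, added after seeing the data, 500 against 20 gave 178.

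Same-numbered libraries at 500 and 20 µg/mL correlated at 0.155, 0.393 and -0.0148 in their deviations from group means over 12586 genes, and at 500 and 100 µg/mL at 0.208, 0.246 and -0.0018, so not every pair deviated together, and replicate 3 at 500 µg/mL did not correlate best with its own number. With a replicate block 500 against 20 gave 145 calls over 27 libraries, and over the 9 Yijin-tang libraries 108 with the block and 56 without, with 9 and 6 stress response genes. In the 9 libraries 500 against 100 gave 16 with the block and 7 without, and 100 against 20, whose same-numbered libraries all correlated over 0.1, 3 and 2. With the block 100 against 20 gave 4 calls over 27 libraries and 16 over its own 6, and Yijin-tang minus Okbyeongpung-san gave 44. The fits of both steps on 9 or 6 libraries were added after seeing the data. Over 174 gene results and 3248 alternatives, 3028 stayed on their side of the threshold, 180 lost a call and 40 gained one. Among results called in the main fit or the alternative, 0 changed direction. Direction was not counted for results called in neither, and some of these changed sign, such as NQO1 for 500 against 20 µg/mL, at -0.020 to 0.058. The cause of these moves was not tested, apart from fewer or more genes or libraries in the fit. Depth limits genes such as CYP1A1 and MUC16, which had few counts per library.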

Other observations

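The genes below were picked after their values were seen, and no count or test of them as groups was made. Of 3 transcription factors, FOXA1, which opens chromatin in lung and liver, averaged 22.7 ± 0.37 CPM at 500 µg/mL and 27.6 ± 2.0 CPM at 20 µg/mL (SD, n = 3 each), a log2 fold change of -0.29 ± 0.067 (SE; adjusted p = 0.0401) in edgeR's test. KLF5, a factor of dividing epithelium, averaged 73.7 ± 2.7 CPM at 500 µg/mL and 89.6 ± 5.5 CPM at 20 µg/mL, which is -0.28 ± 0.062 (SE; adjusted p = 0.0253). TFAP2C averaged 28.8 ± 0.54 CPM at 500 µg/mL and 34.4 ± 0.86 CPM at 20 µg/mL, which is -0.26 ± 0.044 (SE; adjusted p = 0.00282).

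VIPR1, a receptor of vasoactive intestinal peptide, was higher, with a log2 fold change of 0.88 ± 0.19 (SE; adjusted p = 0.0235). LY6K, a membrane-anchored protein, had 2.205, 2.898 and 2.25 CPM at 500 µg/mL, against 1.18, 0.968 and 1.44 CPM at 20 µg/mL, and the doses did not overlap. KRT4, a keratin of mucosal epithelium, was lower at -0.44 ± 0.079 (SE; adjusted p = 0.00371), and SLC2A3, a glucose transporter, at -0.40 ± 0.072 (SE; adjusted p = 0.00421). ZC3H12A, an RNase that degrades inflammatory messenger RNAs, had 12.8, 11.1 and 13.04 CPM at 500 µg/mL, against 14.8, 17.4 and 18.6 CPM at 20 µg/mL, a log2 fold change of -0.46 ± 0.10 (SE; adjusted p = 0.0253) without overlap.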
